A study of Mus musculus with 6 samples.

Results

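Of 54118 gene models in the table, 46 were core spliceosome genes. They were taken as the protein-coding genes whose names mark them as proteins of the small nuclear ribonucleoproteins (the Snrp and Snrnp families), as subunits of splicing factors 3a and 3b (Sf3a, Sf3b), as the branch point and 3′ splice site factors Sf1 and U2af, or as pre-mRNA processing factors (Prpf). The cells were hepatocytes that had been perfused out of livers of C57BL/6 mice and put into culture. They were infected overnight with an adenovirus carrying HuR (3 libraries) or with a control adenovirus carrying beta-galactosidase, called beta-Gal (3 libraries). Every library therefore came from virus-infected cells, and no uninfected group was analysed here. HuR, the product of Elavl1, is an RNA-binding protein of AU-rich and U-rich stretches. The comparison asks which of these messages differ in level when HuR is overexpressed. The labels do not say whether the libraries of a group stem from separate mice or cultures. The p-values thus speak of the spread among 3 libraries, which may be technical.

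The spliceosome removes introns from nuclear transcripts. Its small nuclear ribonucleoproteins U1, U2, U4, U5 and U6 each hold 1 short RNA. All of these but U6 are built on a ring of Sm proteins. U1 binds the 5′ splice site, Sf1 and the U2af pair mark the branch point and the 3′ splice site, U2 then pairs with the branch point, and the U4/U6.U5 tri-snRNP brings in the catalytic parts. A rarer, minor spliceosome with its own U11 and U12 particles acts on a small class of introns. Most of these proteins are used by every cell type.

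The libraries held 15413306 to 17108184 whole reads. Levels are given as FPKM, reads scaled to gene model length and to a total per library. Elavl1 was at 5.45, 5.91 and 5.62 FPKM in beta-Gal and at 2434, 1662 and 1709 FPKM in HuR libraries. Its level thus fitted the labels. All 6 matched hepatocyte markers, among them Alb and Apoa1, were above 1 FPKM, with a summed level of 17489 to 17846 FPKM in beta-Gal and 18912 to 20176 FPKM in HuR libraries. Of 5 Kupffer cell, 5 stellate cell and 4 lymphocyte markers none reached a mean of 1 FPKM, and Nkg7 was at 0. Of 5 endothelial markers only Lyve1 did, and of 4 bile duct markers only Sox9. The endothelial sum was 2.17 to 2.80 FPKM in beta-Gal and 3.00 to 3.37 FPKM in HuR libraries, and the part of such cells in the results was not tested. In RNA of a whole culture, fewer cells with a message and less of it in each cell cannot be told apart.

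Of the 46 genes, 42 passed the filter on low values, an FPKM of at least 1 in at least 3 libraries. A group difference below is that of log2(FPKM + 1), HuR minus beta-Gal, fitted with limma over all 11281 genes that passed, with the p-value adjusted by Benjamini-Hochberg over all of them and a threshold of 0.05. On this scale the change of genes with low values is understated. Of the 42, 12 rose, 6 fell and 24 did not pass the test. The share that rose was 28.6%, beside 20.7% of all tested genes, and the share that fell was 14.3%, beside 24.8%. In all, 42.9% were called, close to the 45.5% of all tested genes, so the core spliceosome was not called more often than the transcriptome at large. The median difference was 0.07, beside -0.01 over all tested genes. Under TPM scaling, in which each library is set to the same sum of FPKM, the median of all tested genes moved to -0.11 and that of the 42 to -0.03, so the sign of that median depends on the scaling. All genes then split into 1543 higher and 3718 lower, instead of 2334 and 2803, and the core genes into 10 and 7.

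The differences ran from -0.72 (Prpf38b) to 0.91 (Snrpf), and none of the 42 was called with a difference of at least 1, where 415 of all tested genes were. A difference of at least 0.5 was found for 6 of the 18 called core genes and for 1830 of the 5137 called genes in all. The groups did not overlap for 20 of the 42 (47.6%), beside 58.1% of all tested genes. All HuR libraries were higher than all beta-Gal libraries for 14 of the 42 (33.3%), beside 27.4% of all tested genes, and lower for 6 of the 42 (14.3%), beside 30.7%. The mean level over all libraries ran from 2.09 to 83.3 FPKM with a median of 10.8, beside a median of 6.48 over all tested genes, and 30 of the 42 lay above that median. The reads behind a value ran from 29 (Snrnp25) to 9546 (Prpf19) per library.

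**Figure D1:**
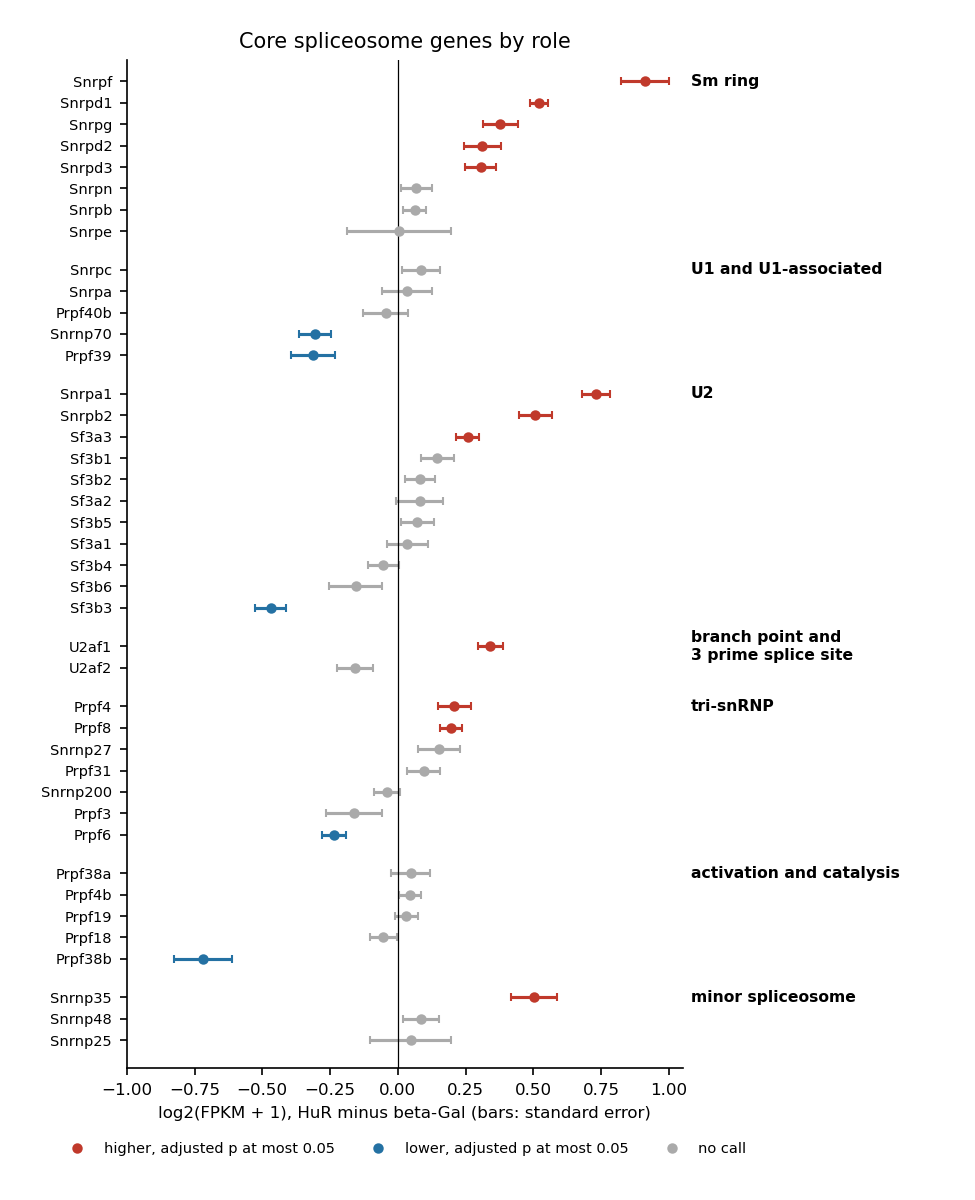
Each point is the group difference of 1 core spliceosome gene on the log2(FPKM + 1) scale, HuR minus beta-Gal, with its standard error as the bar, for 41 tested genes sorted by role. Red marks the 12 genes that rose, blue 5 that fell and grey the 24 with no call. The 8 Sm ring genes lie at or above 0, and Snrnp70 and Prpf39 of the U1 group lie below it.

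The Sm ring held the largest rise. Of its 8 genes, all tested, 5 rose (62.5%, beside 20.7% of all tested genes) and none fell (beside 24.8%). The median difference was 0.31. Summed over the 8 genes, the level was 154, 160 and 164 FPKM in beta-Gal and 200, 198 and 197 FPKM in HuR libraries.

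Snrpf, the Sm protein F, sits at chromosome 10, 93583029 to 93589706, minus strand (positions are those of the table, on the build GRCm38). It was at 9.74, 10.9 and 12.5 FPKM in beta-Gal and at 21.5, 22.5 and 20.6 FPKM in HuR libraries. Every HuR library was thus well above every beta-Gal library. The means were 11 ± 1.41 and 21.6 ± 0.952 FPKM (SD, n = 3 each). Their ratio was 1.95 and the fitted difference 0.91 (SE 0.09, limma adjusted p = 3.69e-04).

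Snrpd1, the Sm protein D1, lies on chromosome 18 from 10617796 to 10628230. It was at 28.2, 27.3 and 28.0 FPKM in beta-Gal and at 40.4 FPKM in each of the HuR libraries. The groups were far apart beside a spread that was small in both. The difference was 0.52 (SE 0.03, limma adjusted p = 8.57e-05), the smallest adjusted p among the core genes.

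The other rises of the ring were smaller. Snrpg was at 14.5, 14.0 and 15.6 FPKM in beta-Gal and at 20.7, 18.1 and 19.3 FPKM in HuR libraries, a difference of 0.38 (limma adjusted p = 0.00372). Snrpd2 and Snrpd3, which pair with other Sm proteins in the ring, rose by 0.31 each, from means of 16.9 and 18.3 to 21.1 and 22.8 FPKM. In all 5 genes that rose, no HuR library was as low as a beta-Gal library, but these genes were called from the same values. Snrpg overlaps the antisense model Gm44941 (mean 1.24 FPKM) and Snrpd3 overlaps 422 bases of Gucd1 (mean 19.5 FPKM) on the other strand. The sources used here do not say whether reads were counted by strand, so reads of such overlaps cannot be told apart.

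Snrpb, the Sm protein B and the most abundant of the ring, was at 49.0, 50 and 53.0 FPKM in beta-Gal and at 52.0, 54.3 and 52.6 FPKM in HuR libraries. The groups overlapped, and its difference of 0.06 did not pass the test (SE 0.04, limma adjusted p = 0.265). Its imprinted paralog Snrpn, best known from neurons, was far lower, with means of 3.77 ± 0.150 and 4.0 ± 0.159 FPKM (SD, n = 3 each). The level of Snrpb was 13 to 13.8 times that of Snrpn in beta-Gal and 13 to 13.5 times in HuR libraries. The Snrpn model overlaps the models Snurf and Gm38393 on its own strand, so its level is uncertain.

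Snrpe, the Sm protein E, varied more within a group than between groups. It was at 11.3, 20.7 and 17 FPKM in beta-Gal and at 15.7, 16.5 and 15.5 FPKM in HuR libraries (difference 0.00, SE 0.19, limma adjusted p = 0.988). The processed pseudogene Snrpert, a copy of its message, was at 19.1, 7.81 and 14.3 FPKM and at 22.1, 16.0 and 13.8 FPKM. Within beta-Gal, the library with the lowest Snrpe had the highest Snrpert, and the reverse held for the library with the highest Snrpe. Of the reads of the pair, 74.4%, 92.9% and 85.4% were assigned to Snrpe in beta-Gal and 77.7%, 83.5% and 84.7% in HuR libraries. In beta-Gal libraries, Snrpe had 258, 495 and 397 reads and Snrpert 89, 38 and 68. The reads of the pair together were 347, 533 and 465 there, so their sum varied too. The source of that spread was not tested. With reads that can be split between a gene and its copy, the value of Snrpe is uncertain.

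**Figure D2:**
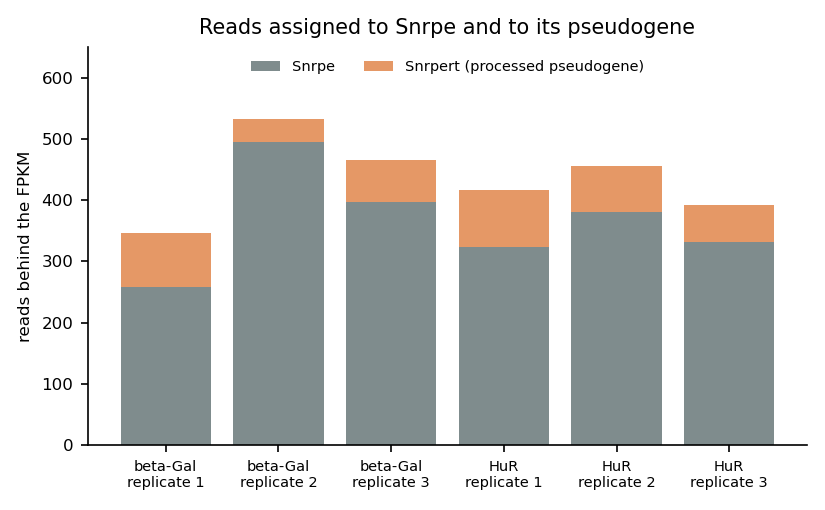
Bars show the whole reads behind the FPKM of Snrpe (grey) and of its processed pseudogene Snrpert (orange, stacked on top) in each of the 6 libraries. Beta-Gal replicate 1 has the fewest Snrpe reads and the second most Snrpert reads (89), and beta-Gal replicate 2 the most Snrpe and the fewest Snrpert reads (38).

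Of the 6 genes of the U1 group, all tested, 3 fell (beside 24.8% of all tested genes) and none rose (beside 20.7%). The median difference was -0.175. The summed level of the group was 52.4, 51.7 and 54.5 FPKM in beta-Gal and 47.3, 45.9 and 47.1 FPKM in HuR libraries. Snrnp70, the U1 protein that binds the first stem loop of U1 RNA and the most abundant of the group, lies on chromosome 7 from 45376453 to 45395742. It was at 19.5, 19 and 18.5 FPKM in beta-Gal and at 15.8, 13.9 and 15.9 FPKM in HuR libraries, without overlap. The difference was -0.31 (SE 0.06, limma adjusted p = 0.00628).

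Prpf39, a U1 protein in yeast, fell from a mean of 3.65 ± 0.135 to 2.76 ± 0.339 FPKM (limma adjusted p = 0.0195). That call was less firm: it ended without beta-Gal replicate 2 (0.0688), beta-Gal replicate 3 (0.0626) or HuR replicate 2 (0.053), with no filter (0.0516) and with the length trend removed (0.131). With the GC trend removed the difference was 0.0077. The Prpf39 model overlaps that of Fkbp3 (mean 3.57 FPKM) by 963 bases. The U1 proteins Snrpa and Snrpc had differences of 0.03 and 0.09 and did not pass the test. Prpf40b, a relative of a yeast U1 protein, had means of 7.82 ± 0.432 and 7.58 ± 0.883 FPKM (SD, n = 3 each) and did not pass either (difference -0.04, limma adjusted p = 0.689).

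The U2 particle was split. Of its 11 genes, all tested, 3 rose (27.3%), 1 fell (9.09%) and 7 did not pass the test. Over all tested genes 20.7% rose and 24.8% fell. Snrpa1 and Snrpb2 encode the A′ and B″ proteins, which bind the U2 RNA together, and both rose. Snrpa1, on chromosome 7 from 66059003 to 66074587, was at 10.8, 10.8 and 10.1 FPKM in beta-Gal and at 19.2, 18.1 and 17.4 FPKM in HuR libraries. Snrpb2, on chromosome 2 from 143063039 to 143072853, was at 6.56, 6.42 and 6.12 FPKM in beta-Gal and at 9.97, 8.75 and 9.70 FPKM in HuR libraries. No HuR library of either gene came near the beta-Gal range. The differences were 0.73 for Snrpa1 (SE 0.05, limma adjusted p = 1.24e-04) and 0.51 for Snrpb2 (SE 0.06, limma adjusted p = 9.12e-04).

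The SF3a and SF3b complexes, which hold U2 on the branch point, showed 1 rise and 1 fall. Sf3b3, the large scaffold of SF3b, on chromosome 8 from 110810239 to 110846787, was at 12.1, 11.8 and 12.3 FPKM in beta-Gal and at 8.99, 8.55 and 7.81 FPKM in HuR libraries. It was lower in every HuR library, with a difference of -0.47 (SE 0.06, limma adjusted p = 0.001). Its model overlaps that of Cog4 (mean 12.8 FPKM) by 188 bases on the other strand. Sf3a3 rose from 13.8 ± 0.315 to 16.7 ± 0.480 FPKM (SD, n = 3 each, limma adjusted p = 0.00316). Sf3b2, the most abundant of the U2 genes, was at 42.2, 42.4 and 38.5 FPKM in beta-Gal and at 41.0, 45.5 and 43.9 FPKM in HuR libraries, so the groups overlapped. Sf3b1, the subunit that clamps the branch point, had means of 15.4 ± 0.451 and 17.1 ± 1.31 FPKM. Its groups did not overlap, and its difference of 0.15 did not pass the test (limma adjusted p = 0.0941). It passed with median centring (0.0284), quantile normalization (0.0324), the GC trend removed (0.00157) or the length trend removed (0.0057). Sf3a1, Sf3a2, Sf3b4, Sf3b5 and Sf3b6 had differences of -0.16 to 0.08 and did not pass.

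Of the branch point and 3′ splice site factors, 2 of 5 gene models were tested. U2af1, the small U2af subunit that reads the AG at the end of the intron, lies on chromosome 17 from 31647082 to 31658754. It was at 69.8, 76.3 and 74.2 FPKM in beta-Gal and at 96.2, 89.8 and 93.8 FPKM in HuR libraries, without overlap. It rose by 0.34 (SE 0.05, limma adjusted p = 0.0015). Its partner U2af2, which binds the pyrimidine tract, had means of 20.4 ± 1.04 and 18.2 ± 1.39 FPKM and did not pass the test (difference -0.16, limma adjusted p = 0.093). It passed without HuR replicate 1 (0.0228), under TPM scaling (0.00545) and with the GC trend removed (0.0375), with a negative difference in each.

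The other 3 models of this group could not be followed. The 2 models of U2af1l4, a paralog of U2af1, stayed under 0.4 FPKM in every library. Sf1, the branch point binding protein, was listed at 0 in every library, on chromosome 19 from 6363690 to 6378030. It lies within an unbroken run of 25 gene models, 13 of them protein-coding, from 6184388 to 6674548, that are all listed at 0. An unnamed model on the patch scaffold MG4249 of the genome, placed there from 6363694 to 6381140, carries in its description the splicing factor 1 helix-hairpin domain. Its values were 0.349, 1.63 and 0.245 FPKM in beta-Gal and 1.41, 0.654 and 0.305 FPKM in HuR libraries, so it varied several-fold within each group. Neither model gives a usable level of Sf1 in these cells.

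The differences of the tested tri-snRNP genes ran from -0.23 to 0.21. Of the 8 genes, 7 were tested, 2 rose (28.6%, beside 20.7% of all tested genes) and 1 fell (14.3%, beside 24.8%). In all 42.9% of them were called, close to the 45.5% of all tested genes. Prpf8, the protein at the catalytic centre and the most abundant of the group, lies on chromosome 11 from 75486816 to 75509449. It was at 27.4, 26.1 and 26.5 FPKM in beta-Gal and at 30.2, 31.9 and 30.2 FPKM in HuR libraries, without overlap. Its difference was 0.20 (SE 0.04, limma adjusted p = 0.00862), and the call ended under TPM scaling (0.09, adjusted p = 0.213).

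Prpf4, a protein of U4/U6, lies on chromosome 4 from 62408797 to 62426990. It was at 3.86, 3.94 and 4.19 FPKM in beta-Gal and at 4.85, 4.49 and 4.99 FPKM in HuR libraries. Its rise of 0.21 (SE 0.06, limma adjusted p = 0.0291) was the least firm call among the core genes. It ended without any 1 library except HuR replicate 2 (0.0505 to 0.0929), with no filter (0.0601), under TPM scaling (0.176) and with the replicate number as a block (0.0567). Prpf6, which bridges U5 and U4/U6, lies on chromosome 2 from 181591868 to 181655660. It was at 21.4, 22.4 and 22.3 FPKM in beta-Gal and at 17.9, 18.6 and 19.3 FPKM in HuR libraries, lower in every one (difference -0.23, SE 0.04, limma adjusted p = 0.00565). Its model overlaps Zfp512b and Samd10 on the other strand, at means of 5.02 and 2.89 FPKM. Snrnp200, the helicase that unwinds U4 from U6, had means of 21.3 ± 0.980 and 20.7 ± 0.623 FPKM, and Prpf3, Prpf31 and Snrnp27 had differences of -0.16 to 0.15. None of these passed the test.

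Snrnp40, a U5 protein, did not pass the filter. It was at 0.0601, 0.0863 and 0.780 FPKM in beta-Gal and at 0.0167, 0.0448 and 0.499 FPKM in HuR libraries, so it was highest in replicate 3 of each group. These values rest on between 1 and 53 reads per library and vary widely within each group, so they do not serve to compare the groups. The source of that spread was not tested.

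Of the 5 genes of activation and catalysis, all tested, 1 fell (20.0%, beside 24.8% of all tested genes) and none rose (beside 20.7%). That gene was Prpf38b, which carries the domain of the yeast tri-snRNP protein Prp38 and lies on chromosome 3 from 108902805 to 108911727. It was at 10.5, 11.3 and 10.5 FPKM in beta-Gal and at 7.46, 5.76 and 5.40 FPKM in HuR libraries. This was the largest fall of the core genes, to 0.576 of the beta-Gal mean (difference -0.72, SE 0.11, limma adjusted p = 0.00211), and HuR replicate 1 fell least. Its relative Prpf38a had means of 3.82 ± 0.346 and 3.98 ± 0.175 FPKM and did not pass the test (limma adjusted p = 0.619). The level of Prpf38a was 0.327, 0.353 and 0.385 times that of Prpf38b in beta-Gal and 0.538, 0.717 and 0.702 times in HuR libraries. Prpf19, the ubiquitin ligase that names the Prp19 complex and the most abundant of this group, was at 73.5, 75.2 and 75.0 FPKM in beta-Gal and at 78.2, 72.5 and 78.1 FPKM in HuR libraries, and the groups overlapped. The kinase Prpf4b and the second-step factor Prpf18 had differences of 0.04 and -0.05 and did not pass.

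Of the 3 minor spliceosome genes, 1 rose (33.3%, beside 20.7% of all tested genes). Snrnp35, a U11 protein that resembles Snrnp70 of the major U1 particle, lies on chromosome 5 from 124483134 to 124491124. It was at 4.22, 5.24 and 4.18 FPKM in beta-Gal and at 7.20, 6.54 and 6.76 FPKM in HuR libraries, without overlap. Its difference was 0.50 (SE 0.09, limma adjusted p = 0.00372). Snrnp48 had means of 2.73 ± 0.156 and 2.96 ± 0.157 FPKM, and Snrnp25 had means of 2.27 ± 0.283 and 2.42 ± 0.673 FPKM. Neither passed the test.

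**Figure D3:**
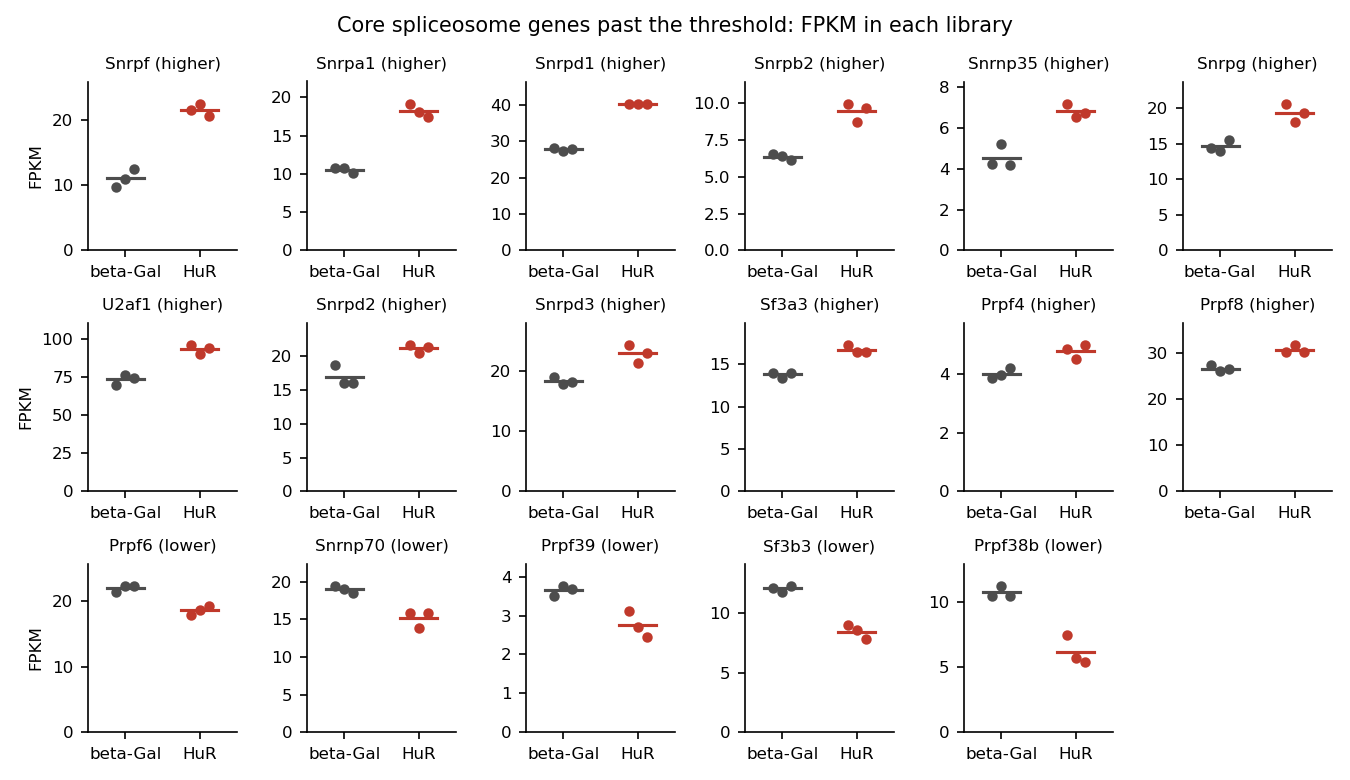
Each panel shows the FPKM of 1 called core spliceosome gene in the 3 beta-Gal (grey) and 3 HuR (red) libraries, with the group mean as a line, on an axis from 0. Panels run from the largest rise (Snrpf, 11 to 21.6 FPKM) to the largest fall (Prpf38b, 10.8 to 6.21 FPKM). In none of the 17 panels do the groups overlap, but only genes called from these same values are shown.

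Genes that rose had shorter models than genes that fell. The median gene model length was 2702 bp for the 12 that rose, 4532 bp for the 24 with no call and 9038 bp for the 6 that fell. Over all tested protein-coding genes the order was the same, with medians of 3420, 3987 and 5277 bp. Across the 42 genes the difference and the log10 model length had a Pearson r of -0.59 (Spearman -0.51), and across 9696 protein-coding genes an r of -0.21 (Spearman -0.24). These are descriptions over genes of the same 6 libraries, and genes are not independent replicates. With transcript GC content the r was -0.05 across the 42 genes and 0.29 across 9688 protein-coding genes. With the length trend over all genes removed, 16 core genes were higher and 5 lower, and with the GC trend removed 17 and 5.

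**Figure D4:**
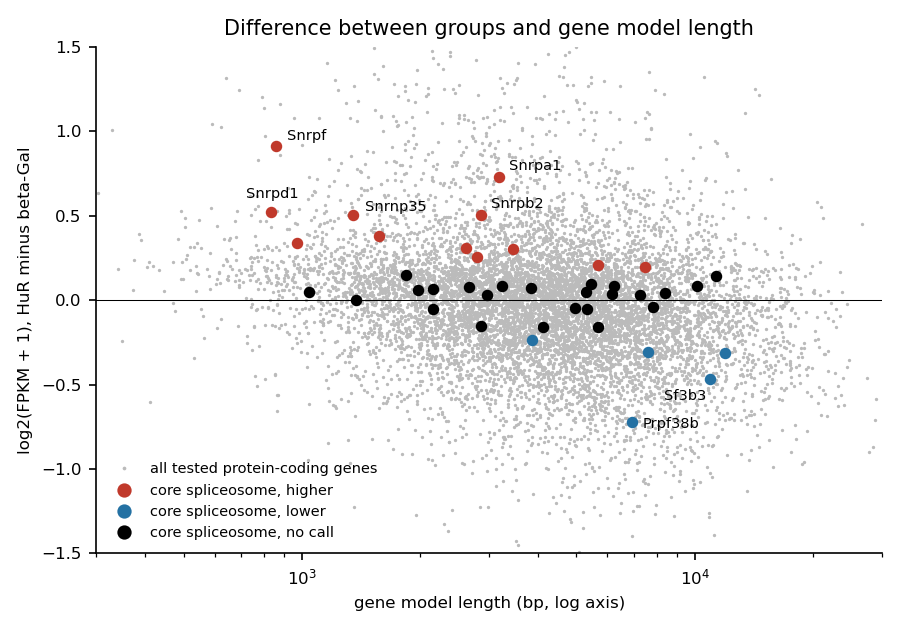
The group difference on the log2(FPKM + 1) scale, HuR minus beta-Gal, is plotted against gene model length in bp on a log axis, with 41 core spliceosome genes as large dots (red higher, blue lower, black no call) over all tested protein-coding genes in grey (9592 of 9696 lie within the axes). Snrpf and Snrpd1, at the short end, are among the highest core genes, and Sf3b3, at the long end, is among the lowest.

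Since HuR binds U-rich and AU-rich stretches, mostly in 3′ untranslated regions, the GENCODE M21 transcripts of the 42 genes were searched there on the transcript strand. The motifs were an AU-rich one, TTTATTT, a run of T, TTTTTTT, and the pentamer ATTTA, and matches may overlap. Binding itself was not measured here. TTTATTT was present in 11 of 42 genes (26.2%), beside 37.6% of 9521 tested protein-coding genes. The pentamer was present in 23 (54.8%), beside 64.6%. The run of T was present in 14 (33.3%), beside 40.0%. The untranslated regions of the core genes were shorter, with a median of 494 bases beside 913, which bears on all of these shares. Per kb of these regions, TTTATTT had 0.533 matches in the core genes, beside 0.525 over all tested protein-coding genes. The run of T had 1.97 beside 1.97, and the pentamer 1.78 beside 1.82. By call, TTTATTT was in 4 of 12 genes that rose, 2 of 6 that fell and 5 of 24 with no call. The run of T was in 5, 4 and 5 of these genes, and the pentamer in 6, 5 and 12. Over all tested protein-coding genes TTTATTT was in 33.5%, 49.8% and 32.7%, in the same order. The run of T was in 34.7%, 50.3% and 36.8%. The pentamer was in 57.8%, 76.6% and 60.9%. The largest rise, Snrpf, and the largest fall, Prpf38b, have no TTTATTT. Snrpf has 14 matches to the run of T and 2 to the pentamer, and Prpf38b has 1 and 3.

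The first TTTATTT site is shown for each gene that rose and has one, to let the stretches be compared letter by letter. The sites lie at chr2:143071720-143071748 (Snrpb2), chr10:75535900-75535928 (Snrpd3), chr6:86379152-86379180 (Snrpg) and chr4:62423703-62423731 (Prpf4) on the plus strand of GRCm38, each in the last exon. Each line gives 29 bases of the transcript, 5′ to 3′, written with T, with TTTATTT in capitals.
Snrpb2: tacaataaactTTTATTTgtattctgttt
Snrpd3: ttttttaaaggTTTATTTtattatgtatg
Snrpg: gttttagaataTTTATTTgtatgacatga
Prpf4: tttttgtttttTTTATTTggcattttgag
In Prpf4, the T letters just before the site and the first T letters of the site together hold a match to TTTTTTT.

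Promoters of 35 of the 42 genes, from 250 bases before to 50 after the start, were taken from RefSeq (GRCm38.p6). They were searched on both strands for the GC box GGGCGG, the CCAAT box CCAAT, the ETS motif CCGGAAG, the E-box CACGTG and the TATA box TATAAA, and matches may overlap. CCGGAAG was in 15 of 35 (42.9%), beside 8.86% of all 32851 promoters of the set. That set was not limited to tested or protein-coding genes and may hold several starts of a gene. The shares beside those of the core genes thus come from an unlike set. GGGCGG was in 22 (62.9%), beside 35.7%, and CCAAT in 13 (37.1%), beside 37.4%. The median GC content was 57.7% beside 52.7% over all promoters. By call, CCGGAAG was in 3 of 11 promoters of genes that rose and 2 of 5 of genes that fell, and GGGCGG in 6 of 11 and 4 of 5. A match is a description of the letters, not of a factor at work.

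The promoters of the 2 largest rises and of the 2 largest falls are printed because they are the ends of the range. They lie at chr10:93589609-93589908 on the minus strand (Snrpf), chr7:66060086-66060385 on the plus strand (Snrpa1), chr3:108911680-108911979 on the minus strand (Prpf38b) and chr8:110846754-110847053 on the minus strand (Sf3b3). The Snrpa1 window lies inside the gene model given above, which begins at 66059003, so it belongs to a later start. Capitals mark matches to the motifs on either strand.
Snrpf: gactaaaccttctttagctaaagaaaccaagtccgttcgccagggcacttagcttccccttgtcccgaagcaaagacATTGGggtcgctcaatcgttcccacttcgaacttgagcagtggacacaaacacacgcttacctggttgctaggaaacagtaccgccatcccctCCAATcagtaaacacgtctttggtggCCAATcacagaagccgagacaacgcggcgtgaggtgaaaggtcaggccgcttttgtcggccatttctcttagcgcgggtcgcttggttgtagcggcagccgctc
Snrpa1: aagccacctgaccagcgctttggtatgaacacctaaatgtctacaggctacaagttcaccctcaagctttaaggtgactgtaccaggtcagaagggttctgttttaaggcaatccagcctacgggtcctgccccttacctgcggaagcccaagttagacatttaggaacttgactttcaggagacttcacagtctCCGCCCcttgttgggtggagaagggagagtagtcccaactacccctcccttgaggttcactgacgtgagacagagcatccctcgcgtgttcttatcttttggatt
Prpf38b: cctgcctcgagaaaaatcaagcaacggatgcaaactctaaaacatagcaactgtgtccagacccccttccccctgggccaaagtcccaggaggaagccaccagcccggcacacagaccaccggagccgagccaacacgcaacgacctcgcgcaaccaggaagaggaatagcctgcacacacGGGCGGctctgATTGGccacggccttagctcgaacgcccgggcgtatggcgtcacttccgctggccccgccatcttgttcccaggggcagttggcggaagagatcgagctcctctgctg
Sf3b3: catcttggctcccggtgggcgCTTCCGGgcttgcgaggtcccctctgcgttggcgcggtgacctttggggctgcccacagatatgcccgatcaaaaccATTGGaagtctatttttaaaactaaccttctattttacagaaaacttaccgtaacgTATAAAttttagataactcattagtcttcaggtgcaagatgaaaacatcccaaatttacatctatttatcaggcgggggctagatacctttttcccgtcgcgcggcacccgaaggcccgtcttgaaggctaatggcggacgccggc
Snrpf holds 3 matches to the CCAAT box and none to the others, Snrpa1 only a GC box, Prpf38b a GC box and a CCAAT box, and Sf3b3 a CCAAT box, the ETS motif and a TATA box.

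Spliceosome proteins outside the core names moved in both directions. Of 76 such factors, 74 were tested, and 21 rose (28.4%, beside 20.7% of all tested genes) and 20 fell (27.0%, beside 24.8%). In all 55.4% were called, beside 45.5%. The median difference was -0.01, with -0.12 under TPM scaling and 0.03 with median centring. Leaving out beta-Gal replicate 2 gave 13 falls, and leaving out beta-Gal replicate 3 gave 12. TPM scaling gave 15 rises and 26 falls. The largest difference was that of Pdcd7, a U11 protein of the minor spliceosome, which rose from 4.18 ± 0.167 to 9.77 ± 1.27 FPKM (SD, n = 3 each, limma adjusted p = 2.41e-04). Luc7l, a relative of a yeast U1 protein, rose from 7.69 ± 0.121 to 15.8 ± 0.236 FPKM. Txnl4b, a relative of the U5 protein Dim1, rose by 0.85. Ppil1, a prolyl isomerase of the catalytic spliceosome, rose by 0.80. Tssc4, an assembly factor of U5, rose by 0.75. Ecd, a partner of Prpf8, fell from 9.69 ± 0.431 to 5.07 ± 0.516 FPKM. The limma adjusted p of these last 5 genes was at most 0.00136.

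Of 26 factors that assemble or mature the small nuclear ribonucleoproteins, 25 were tested, and 2 rose (8.0%, beside 20.7% of all tested genes) and 8 fell (32.0%, beside 24.8%). In all 40.0% were called, close to the 45.5% of all tested genes. Sart3, 1 of the 8 that fell, is counted both here and among the other spliceosome factors. The median difference was -0.13, and -0.25 under TPM scaling. Usb1, which trims the end of U6 RNA, rose from 6.95 ± 0.559 to 12.2 ± 0.662 FPKM (limma adjusted p = 3.44e-04). Gemin5, which picks out these RNAs for the SMN complex, fell from 7.82 ± 0.330 to 5.67 ± 0.652 FPKM (limma adjusted p = 0.00623). The cap-binding protein Ncbp1 and the SMN complex member Gemin8 fell by 0.40 and 0.32. The falls numbered 3 to 7 with 1 library left out, 3 with no filter and 13 under TPM scaling, and 1 gene rose without any 1 library except HuR replicate 1. Of 29 tested hnRNP and SR proteins, which steer splice site choice, 7 rose (24.1%, beside 20.7% of all tested genes) and 12 fell (41.4%, beside 24.8%). In all 65.5% were called, beside 45.5%. The median difference was -0.13, with 0.02 once the GC trend was removed. TPM scaling gave a median of -0.24, with 6 rises and 15 falls. Whether these lists differ from the core genes was not tested.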

How the data were processed

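RNA-seq on an Illumina NovaSeq gave 1 library from each of 3 beta-Gal and 3 HuR samples, grouped and numbered by their titles. The deposited table holds FPKM, which the authors scaled to gene model length and to a total per library. The submitters' processing notes name GRCm38.p6, DESeq2 1.16.1, featureCounts 1.5.0-p3 and HISAT2 2.0.5 without saying what each was used for. They do not say whether counting used strand. FPKM was multiplied by length and divided by the worth of 1 read, which gave the reads printed. In all 6 libraries, 100% of values then came out as whole reads (tolerance 0.001). The worth of 1 read implies the total used for scaling. For HuR replicate 1 that total was 15054745, below the 15902608 whole reads of the library. In each other library it was above the whole reads. The reason was not tested.

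limma 3.58.1 (R 4.3.3) was run on log2(FPKM + 1) with a mean-variance trend and the group as the only term, two-sided. It was tested on simulated reads, in which far fewer genes were changed than were called here. That run cannot give the error rate of these calls. The members, gene lists and tests were chosen with earlier results of these data known. Values per library are given for called members with a difference of at least 0.5, for the most abundant member and for the largest called rise and fall of each role. Members with a paralog are named whatever their p, some by group means only. Snrpg, Snrpe and the members that were not tested were added after their values were seen. Of the other spliceosome factors the 6 called ones with the largest differences are named, and of the assembly factors 4. Sart3 is named besides, as it is in both lists. Alternatives were pseudocounts of 0.1 and 0.5, no filter, FPKM of at least 5, TPM scaling, median centring, quantile normalization, limma voom on the reads, protein-coding genes only, GC and length trends removed (lowess, span 0.3), the replicate number as a block and each library left out. The voom fit used the totals implied by the FPKM, so it kept the library scaling of the main fit. Transcript GC content was known for 98.4% of tested genes. Gene positions are from the table. Python 3.11.15, numpy 2.4.6, pandas 2.3.3 and matplotlib 3.10.9 were used. One tested member and some sequences are counted but not reported here by name.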

Additional observations from a re-analysis of the deposited data

How the results depend on the processing

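Over all alternatives, 10 to 17 core spliceosome genes were higher and 5 to 7 lower, against 12 and 6. Of the 18 calls, 14 held under every alternative in which the gene was tested, and those of Prpf8, Prpf4 and Prpf39 were among those that did not. With 1 library left out, 11 to 12 core genes were higher and 5 to 7 lower, and over all tested genes 1750 to 2371 and 2146 to 2913. Under TPM scaling the count of all genes higher was 1543. With the GC trend removed the sign of Prpf39 turned (0.0077), and 6 genes gained a call. The cause was not tested. No shared deviation of same-numbered libraries was seen: their deviations from the group means correlated at -0.029, 0.00067 and -0.014. Whether same-numbered libraries share a mouse or culture cannot be told from this. With the replicate block, 11 core genes were higher and 6 lower, and 2084 and 2465 of all genes. The values of Snrnp25, U2af1l4 and Snrnp40 rest on few reads, and why those of Snrnp40 varied within each group was not tested.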
